A study of Mus musculus with 12 samples.

Results

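Pancreatic islets of wild type (WT) mice fed a high fat diet were compared with islets of WT mice fed a standard diet by RNA sequencing. The comparison rests on 6 of the 12 libraries of the series, chosen by their labels: 3 named STD WT and 3 named HFD WT. All 6 came from male C57BL/6 mice, labelled as 40 weeks old, with no altered allele named for this genotype. STD WT mice had received a standard diet with 6.2% fat throughout, and HFD WT mice had received 4 weeks of standard food and then 36 weeks of a diet with 60% of its calories from fat. Islets of every library had been freed with collagenase injected through the bile duct and collected on a Histopaque density gradient, so each library holds all cell types of an islet together with whatever exocrine, vascular or immune cells came along. The other 6 libraries came from mice with a beta-cell-selective Sirt3 knockout (KO) on the same 2 kinds of diet. They entered the filter on low counts and the scaling, so 16076 genes were tested, against 15269 in the 6 WT libraries alone. In the model they helped to estimate the spread between libraries. They also gave the diet difference in KO and a test of whether the diet difference depended on genotype. HFD KO mice had received 5 to 6 weeks of standard food first, so genotype and earlier feeding cannot be told apart in that test. Whether each library stands for an animal of its own or for a pool is not in the labels, so the tests measure the spread between libraries, which may be in part technical.

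Islets are clusters of endocrine cells in which beta cells release insulin, alpha cells glucagon, delta cells somatostatin and PP cells pancreatic polypeptide. Long feeding with fat makes mice obese and insulin resistant, and beta cells are known to meet the demand with more insulin release and with growth of the islets. The transcription of a beta cell also follows its electrical activity: calcium entry and cyclic AMP induce immediate early genes such as Fos, Egr1, Nr4a1 and Npas4 within minutes, and handling of tissue induces many of the same genes. Excess lipid and cholesterol are sensed through PPAR and SREBP transcription factors, which control fatty acid oxidation and sterol synthesis.

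Total counts of the 6 libraries lay between 16419024 and 20864920 (gene-assigned reads), and 20386 to 22360 genes had at least 1 count. The tissue label fitted its markers: Ins1 and Ins2 together took 24.7% to 33.5% of all counts, and Iapp, Gcg, Sst and Ppy were abundant in every library. Across genes, log2 counts correlated between libraries of a group with r from 0.913 to 0.967 and between the groups with r from 0.919 to 0.975, and the first principal component, with 54.8% of the variance, did not separate the diets. It set HFD WT 1 at 87.3 against -52.3 for STD WT 1 and -55.7 for HFD WT 2. HFD WT 1 held little lymphocyte RNA (31 B and T cell markers summed to 190.2 CPM, against 990 to 4955 in the other 5), and STD WT 3 held little acinar RNA (29 markers summed to 8021 CPM, against 27822 to 44949). CPM are read counts scaled to a common sequencing depth, with library sizes adjusted by TMM, and they are not divided by gene length.

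No gene passed the adjusted threshold of 0.05 in the diet comparison. Of 16076 genes tested with edgeR's quasi-likelihood test, 0 were called (0% of those tested), and the smallest adjusted p was 0.101. At an unadjusted p under 0.05, 762 genes (4.74%) were listed, 277 (1.72%) higher and 485 (3.02%) lower on the high fat diet. These 762 are no more than this cutoff would list on average if no gene differed. Without HFD WT 2 this unadjusted count was 1597, without HFD WT 3 it was 463, and its split turned to 568 higher and 431 lower with offsets corrected for gene length and to 407 higher and 340 lower in a fit of the 6 WT libraries alone. The Wald test of DESeq2 on the same counts called 43 genes, 5 higher and 38 lower, among them Gfra3, Npas4, Btg2, Peg10, Fosl2, Egr4, Fos, Egr1, Cebpd and Irs2. None of those 43 was called by edgeR, so every difference given from here on did not pass the main test and is described by its values.

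The precision of the comparison differed between weak and abundant genes. The 95% interval of the fold change stayed within 2-fold in either direction for 10856 genes (67.5%), and for 8309 of the 9221 genes with a mean of at least 10 CPM in STD WT (90.1%). The median SE of a log2 fold change was 0.23, and 832 genes (5.18%) had an absolute log2 fold change over 1. The median log2 fold change over all genes was 0.01.

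**Figure D1:**
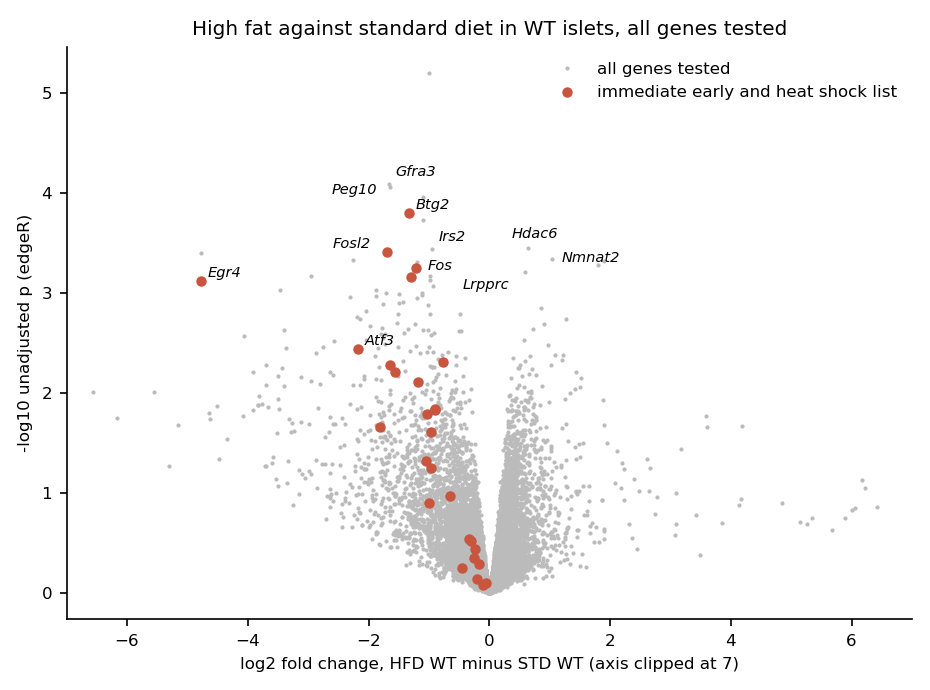
Each dot is 1 of 16076 genes tested, with the log2 fold change (HFD WT minus STD WT) on the horizontal axis and -log10 of the unadjusted edgeR p on the vertical axis. Red dots are the 28 immediate early and heat shock genes, all left of 0.

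Immediate early genes stood lower in the high fat islets. All 28 members of the immediate early and heat shock list had a negative log2 fold change, against 48.5% of all genes, and the median of the list was -0.96, against 0.01. None passed the adjusted test. In 10 of the 28 (35.7%) all 3 HFD libraries lay below all 3 STD libraries, which is called separated lower from here on and was found in 4.53% of all genes (separated higher: 5.06%). Of the 28, 16 (57.1%) were lower at an unadjusted p under 0.05, against 3.02% of all genes. The difference lay in the immediate early genes more than in the chaperones: the 20 immediate early genes had a median of -1.12, with 9 separated, and the 8 heat shock genes had a median of -0.25, with 1 separated. The summed level of the list was 6061 to 8905 CPM in STD WT and 3739 to 4969 CPM in HFD WT. Leaving out any library of the 6 left 25 to 28 members negative and the median between -1.36 (without HFD WT 2) and -0.72 (without STD WT 1).

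Short promoter windows of 4 of these genes are shown because they hold TGACG, the core of the cyclic AMP response element through which CREB is known to drive activity-dependent transcription. They come from RefSeq (GRCm38.p6), read 5′ to 3′ on the strand of the gene, and capitals mark TGACG or its reverse complement CGTCA.
Fos: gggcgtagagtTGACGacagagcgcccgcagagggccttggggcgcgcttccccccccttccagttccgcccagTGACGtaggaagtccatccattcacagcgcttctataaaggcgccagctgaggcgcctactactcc
Btg2: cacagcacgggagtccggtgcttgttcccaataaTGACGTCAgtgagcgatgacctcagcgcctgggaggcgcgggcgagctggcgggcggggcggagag
Nr4a1: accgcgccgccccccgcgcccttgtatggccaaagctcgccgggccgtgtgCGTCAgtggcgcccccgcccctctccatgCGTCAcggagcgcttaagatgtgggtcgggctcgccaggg
Egr4: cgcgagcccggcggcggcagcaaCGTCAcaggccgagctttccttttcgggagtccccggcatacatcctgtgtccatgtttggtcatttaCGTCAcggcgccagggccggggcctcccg
The Fos window is chr12:85473750-85473889 (+), the 140 bases before the start, and its matches begin 129 and 66 bases before it. The Btg2 window is chr1:134079256-134079355 (-), from 200 to 101 bases before the start, where the matches that begin at 166 and 163 overlap as the palindrome TGACGTCA. Unlike for Fos, Nr4a1 and Egr4, the bases just after this RefSeq start were not found in a GENCODE transcript of the gene. The distances given for Btg2 are therefore less certain. The Nr4a1 window is chr15:101266726-101266845 (+), the 120 bases before the start of the RefSeq transcript, with matches from 69 and 40, and it lies in an intron of a longer annotated Nr4a1 transcript. The Egr4 window is chr6:85513670-85513789 (-), from 200 to 81 bases before the start, with matches from 177 and 109. TGACG on either strand was found in the 250 bases before the start in 13 of the 21 list members with a promoter in the table (61.9%), and in 5347 of 27025 genes (19.8%). The full palindrome TGACGTCA was found in 2 of the 21 (9.52%, Dusp1 and Btg2), against 1.77% of genes, and the CArG box of serum response factor in 1 (4.76%, Egr2), against 1.62%. A match is a description of these letters and was not tested as a binding site.

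Fos, the leucine zipper partner in AP-1, was read at 1212, 963 and 1303 CPM in STD WT 1 to 3 and at 402, 641 and 449 CPM in HFD WT 1 to 3. All HFD libraries were lower, by 2.33-fold in the fitted means (log2 fold change -1.22 ± 0.26 SE, 95% interval -1.79 to -0.66, adjusted p = 0.551 by edgeR). Fosl2, a Fos relative with slower kinetics, gave 69.4, 44.2 and 113 CPM against 19.1, 23.7 and 27.3 CPM (log2 fold change -1.69 ± 0.34). In Fosb the values were 698, 312 and 739 CPM against 120.4, 293 and 177 CPM and the groups again did not overlap, with STD WT 2 and HFD WT 2 close to each other. The Jun partners overlapped: Jun was at 748, 429 and 537 CPM against 204, 461 and 254 CPM, and Junb at 869, 463 and 696 CPM against 148, 628 and 265 CPM, with HFD WT 2 inside the STD range in both.

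Egr1, the zinc finger factor most used as a marker of recent stimulation, was at 1021, 702 and 831 CPM in STD WT and 249, 474 and 315 CPM in HFD WT (log2 fold change -1.30 ± 0.28). Egr4, a weakly expressed relative, had the widest difference of the list, with 1.15, 2.91 and 10.7 CPM against 0, 0.417 and 0.114 CPM (log2 fold change -4.77 ± 1.03). HFD WT 1 held no Egr4 read, and STD WT 3 alone held most of the reads of the other group, so this fold is poorly known. Egr2 and Egr3 overlapped between the groups: Egr3 was at 41.7, 19.8 and 30.2 CPM against 2.63, 47.1 and 17.5 CPM, with its highest library on the high fat diet.

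Among the orphan nuclear receptors, which act as immediate early transcription factors, Nr4a1 was at 339.8, 226 and 490.5 CPM in STD WT and 66.1, 173 and 97.05 CPM in HFD WT (log2 fold change -1.65 ± 0.47). Nr4a2 was at 14.7, 17.3 and 39.2 CPM against 12.6, 10.8 and 11.4 CPM, without overlap. Nr4a3 was at 11.6, 9.05 and 36.4 CPM against 1.23, 9.11 and 5.94 CPM and overlapped. In all 3 receptors STD WT 3 held the highest level of the 6 libraries.

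Btg2, an antiproliferative transcriptional cofactor, had the smallest p of the list. Its level was 545, 391 and 516 CPM in STD WT and 164, 246 and 170.1 CPM in HFD WT, which is 2.51-fold lower in the fitted means (log2 fold change -1.32 ± 0.24 SE, 95% interval -1.85 to -0.80, adjusted p = 0.499 by edgeR). Atf3, a stress-induced repressor, was at 404, 121 and 273 CPM against 30.1, 106 and 41.3 CPM, with HFD WT 2 close under STD WT 2. Dusp1, the phosphatase that turns off MAP kinases, was at 507, 271 and 395 CPM against 143, 310.1 and 177 CPM and overlapped through HFD WT 2. HFD WT 2 was the highest HFD library for Fos, Fosb, Egr1, Nr4a1, Btg2, Atf3, Dusp1, Jun and Junb alike.

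Further induced genes, named after their values were seen, lay lower as well. Npas4, a factor induced by calcium entry through voltage-gated channels, was at 37.3, 85.4 and 162 CPM in STD WT and 17.9, 8.28 and 10.5 CPM in HFD WT (log2 fold change -2.95 ± 0.62). Arc, an immediate early gene known from neurons, was at 21.9, 24.9 and 63.9 CPM against 8.57, 11.02 and 7.43 CPM. Klf4 was at 62.6, 72.4 and 86.7 CPM against 30.5, 39.5 and 32.2 CPM, and Errfi1, an induced inhibitor of the EGF receptor, at 149.8, 78.2 and 97.7 CPM against 42.3, 48 and 51.2 CPM. In none of these 4 did the groups overlap.

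Of the heat shock genes only Hspb1 was separated. This small heat shock protein was at 30.6, 22.8 and 27.2 CPM against 15.6, 15.4 and 16.3 CPM (log2 fold change -0.77 ± 0.22). Hspa1a, an inducible Hsp70, was at 37.8, 42.5 and 59.6 CPM against 30.96, 43.8 and 36.4 CPM, and its near-identical neighbour Hspa1b at 50.3, 73.8 and 94.5 CPM against 49.2, 79.7 and 53.8 CPM, so how reads were shared between them is uncertain. Hsph1 was at 93.8, 102 and 203 CPM against 219.9, 48.7 and 99.7 CPM, with both its highest and its lowest library on the high fat diet.

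**Figure D2:**
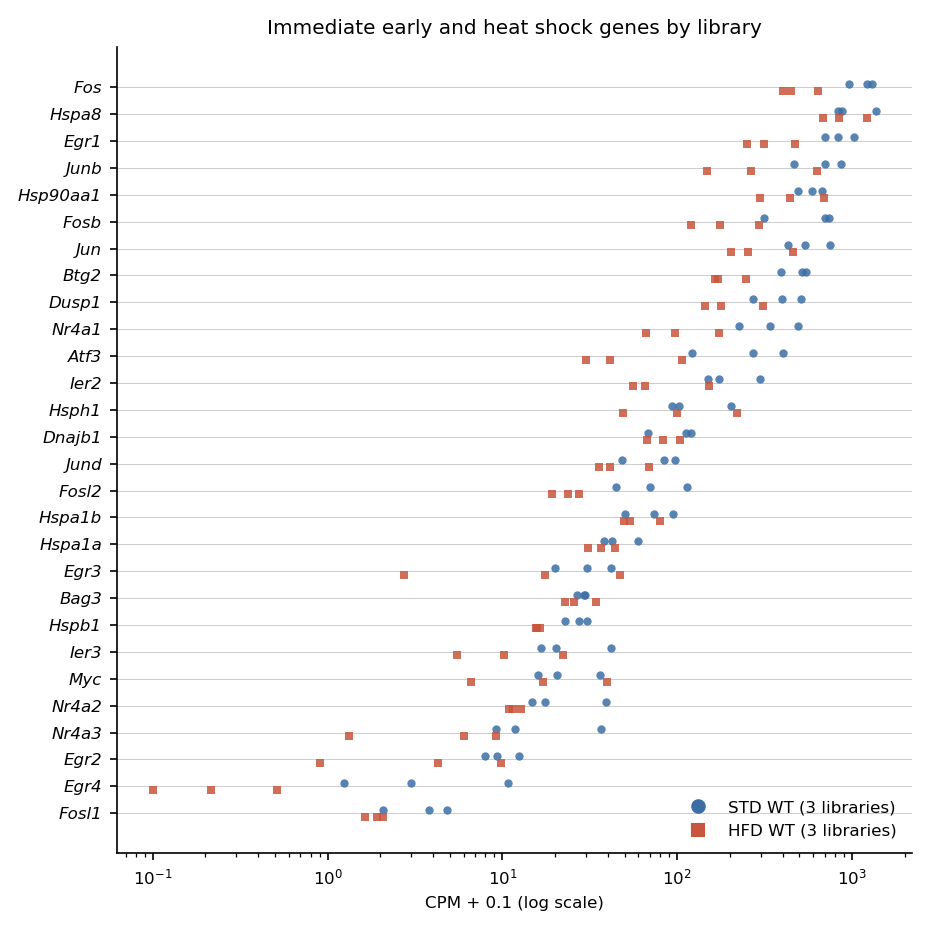
Each row is 1 gene of the immediate early and heat shock list, with its CPM plus 0.1 on a log axis in the 3 STD WT libraries (blue circles) and the 3 HFD WT libraries (red squares), ordered by mean CPM in STD WT. Fos lies at 963 to 1303 CPM in STD WT and 402 to 641 CPM in HFD WT, while the heat shock genes at the same height of the plot overlap; CPM are not divided by gene length.

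The immediate early genes pointed the same way in the knockout comparison, which shares no library with the WT comparison. In KO, 19 of the 20 immediate early genes and 8 of the 8 heat shock genes had a negative log2 fold change on the high fat diet, with medians of -0.47 and -0.48. The fitted difference was steeper in WT than in KO for 18 of the 20 immediate early genes and for 1 of the 8 heat shock genes. These counts were not tested, and the list was chosen with earlier results of these data known. No interaction of diet and genotype passed the test in any gene (0 of 16076, 0%; smallest adjusted p 0.157), and the smallest adjusted p in this list was 0.621. At an unadjusted p under 0.05 the interaction listed 1271 genes (7.91%), with 2 immediate early and 2 heat shock genes among them. Fos differed by -1.22 in WT and -0.35 in KO (interaction 0.88 ± 0.36), and Btg2 by -1.32 in WT and -0.44 in KO (interaction 0.89 ± 0.33). The heat shock genes Hspa1a and Hspa1b ran the other way, at -0.33 and -0.26 in WT and -1.32 and -1.44 in KO.

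**Figure D3:**
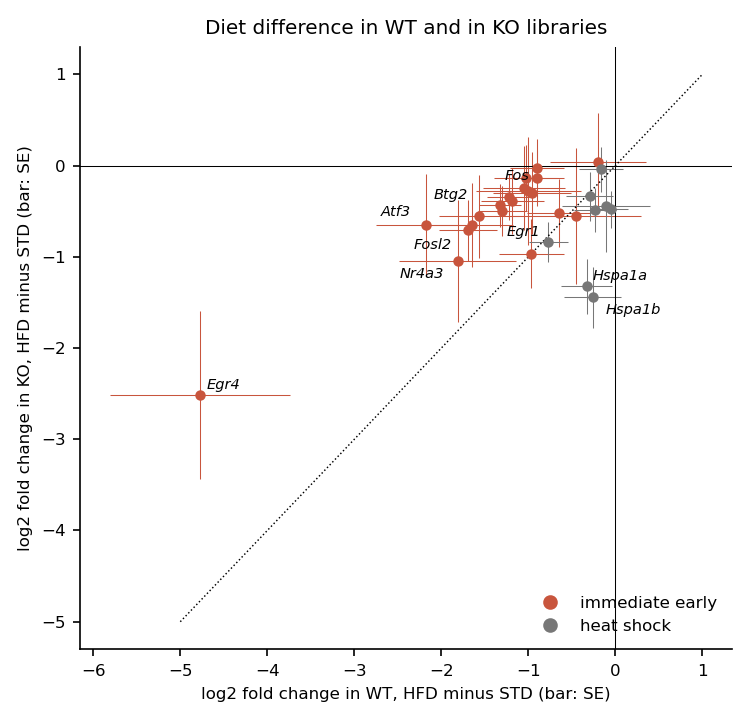
Each point is 1 immediate early (red) or heat shock gene (grey), with its log2 fold change (HFD minus STD) in WT on the horizontal and in KO on the vertical axis; bars are SEs from the edgeR fit and the dotted line marks equal values. Immediate early genes lie mostly above the dotted line, with Egr4 at -4.77 in WT and -2.52 in KO.

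Markers of alpha cells, which release glucagon, included several that lay lower on the high fat diet, the hormone gene among them. Of 13 alpha cell genes, 9 were negative and 4 positive, with a median log2 fold change of -0.27; 5 had all HFD libraries below all STD libraries (38.5%, against 4.53% of all genes) and 1 the reverse. The summed level of the list was 29163 to 36561 CPM in STD WT and 21451 to 24808 CPM in HFD WT, without overlap. Gcg alone, with means of 28708 CPM in STD WT and 19689.5 CPM in HFD WT, made up most of this sum and of its difference. The median of the list was -0.49 without HFD WT 2, -0.47 without STD WT 3 and -0.17 without HFD WT 1. In whole islets, fewer cells of a type and less RNA per cell cannot be told apart.

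Irx1 and Irx2, homeobox factors of alpha cells, were at 18.97, 25.2 and 25.8 CPM in STD WT against 12.9, 12.1 and 10.5 CPM in HFD WT and at 16.1, 21.8 and 18.1 CPM against 10.4, 13.8 and 11.9 CPM. Gcg, the glucagon gene, was at 27271, 33076 and 25777 CPM against 18234, 22298 and 18537 CPM, 1.46-fold lower in the fitted means with a 95% interval on the log2 scale of -1.28 to 0.19. Ttr, transthyretin, which alpha cells express strongly, was at 1551, 1901 and 1797 CPM against 1329.8, 1280.2 and 1120.2 CPM. All 4 of these genes were separated between the diets. Dpp4, the incretin-degrading peptidase, ran the other way with 73.3, 85.8 and 78.2 CPM against 109, 92.01 and 109 CPM. In KO, 9 of the 13 alpha cell genes were negative and 4 positive as well, with a median of -0.46. Irx1 differed by -0.46 there, while Gcg and Ttr had positive differences of 0.30 and 0.15. The adjusted p of the interaction in edgeR was at least 0.621 for every alpha cell gene.

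Delta and PP cell genes were mixed. Sst, somatostatin, was at 3219, 3153 and 3734 CPM in STD WT and 2279.5, 3144 and 2362 CPM in HFD WT, close but without overlap (log2 fold change -0.38 ± 0.28). Ppy, pancreatic polypeptide, was at 1285, 877 and 2446 CPM against 1023, 3170.4 and 2041 CPM, a spread of over 2-fold inside each group. Pcdh8, a protocadherin of the same list, was at 2.79, 2.03 and 4.17 CPM against 0.589, 1.07 and 0.914 CPM. Of the 11 genes tested 7 were negative and 4 positive, 2 were separated lower (18.2%, against 4.53% of all genes), and Ghrl, ghrelin, was too weak to be tested.

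Beta cell transcripts did not differ beyond the spread between libraries. Of 28 identity genes 17 were positive and 11 negative with a median of 0.09, and of 18 genes for insulin, amylin and prohormone processing 10 were positive and 8 negative with a median of 0.04. Leaving out each library in turn, the medians ran from -0.02 to 0.26 and from -0.10 to 0.17. In neither list was a member separated, against 4.53% of all genes with all HFD libraries lower and 5.06% with all higher. Ins2 was at 172150.0, 236431 and 256565 CPM in STD WT and 284110.0, 193325 and 215093 CPM in HFD WT, and its log2 fold change of 0.06 had a 95% interval of -0.59 to 0.71. Ins1, a near-identical copy whose reads may be shared with Ins2, was at 60471, 76997 and 86399 CPM against 90360.5, 63493 and 69005 CPM (interval -0.67 to 0.65). Iapp, amylin, was at 16478, 19248 and 21398 CPM against 25219, 16324 and 20562 CPM. For these 3 hormones HFD WT 1 held the highest level of the 6 libraries and STD WT 1 or HFD WT 2 the lowest.

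Mafa, the insulin gene activator of mature beta cells, was at 504, 444 and 459.7 CPM in STD WT and 558, 504 and 583 CPM in HFD WT (log2 fold change 0.22 ± 0.18, 95% interval -0.18 to 0.63). Slc2a2, the glucose transporter GLUT2, was at 424, 791 and 753 CPM against 791, 495 and 785 CPM. Ucn3, a maturity marker that paces somatostatin release, was at 358, 448 and 529 CPM against 692, 471 and 589 CPM, with only HFD WT 1 and 3 above the STD range. Adcyap1r1, a PACAP receptor, had 3.39, 3.86 and 2.06 CPM against 1.13, 2.08 and 1.94 CPM. Of the genes of the granule, Ptprn2 was at 447, 563 and 565 CPM against 743, 533 and 777 CPM, Chgb at 1456, 1766 and 2475 CPM against 1724, 1246 and 1626 CPM and Scg2, named after its values were seen, at 6211, 7471 and 7968 CPM against 10154, 6245 and 9355 CPM.

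Genes of glucose sensing, excitability and release held few separated members. Abcc8, the sulfonylurea receptor subunit of the K-ATP channel, was at 544, 554 and 666 CPM in STD WT and 854, 698 and 877 CPM in HFD WT (log2 fold change 0.46 ± 0.18). Of the 23 genes of that list 2 were separated in each direction (8.70%, against 5.06% of all genes higher and 4.53% lower). Their median was 0.12, and it ran from 0.02 without HFD WT 1 to 0.29 without HFD WT 2. Unc13a, which primes vesicles for fusion, was at 48.7, 42.9 and 36.3 CPM against 58.2, 56.9 and 64.4 CPM, and Cplx1 at 0.687, 0.570 and 0.501 CPM against 0.429, 0.298 and 0.228 CPM. Exocytosis genes as a group (21 tested, 16 positive) had a median of 0.11, which was -0.01 without STD WT 1. In this list 1 member was separated in each direction (4.76%), near the shares of all genes (5.06% higher and 4.53% lower).

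Aldh1a3, a retinaldehyde dehydrogenase known as a marker of dedifferentiated beta cells, split the high fat libraries. It was at 9.30, 4.56 and 2.78 CPM in STD WT and 21.1, 4.47 and 19.02 CPM in HFD WT: HFD WT 1 and 3 lay above every STD library and HFD WT 2 among them (log2 fold change 1.42 ± 0.59). In KO its difference was 2.54. Of the 22 dedifferentiation and disallowed genes tested 18 were negative, with a median of -0.33 (-1.02 without HFD WT 2). Only 1 was separated lower (4.55%, against 4.53% of all genes), the same share as in all genes. Members of that list are also expressed in stellate cells, such as Pdgfra at 8.25, 7.34 and 3.67 CPM against 0.107, 3.87 and 1.83 CPM.

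**Figure D4:**
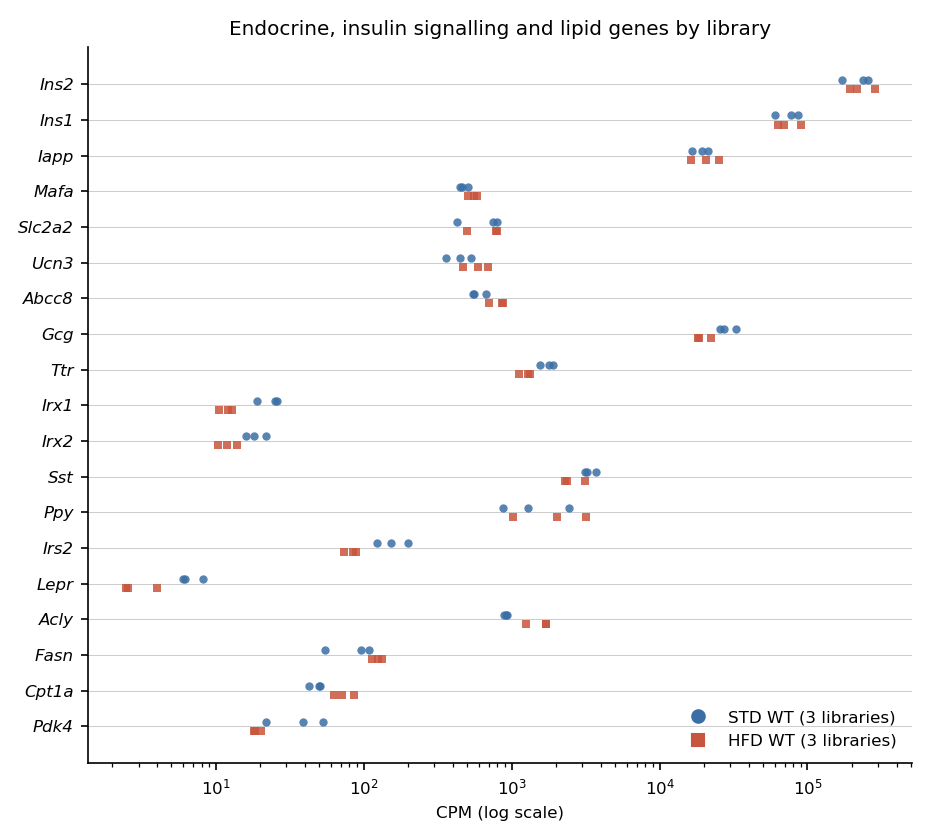
CPM on a log axis for 19 endocrine, insulin signalling and lipid genes in the 3 STD WT libraries (blue circles) and the 3 HFD WT libraries (red squares). Ins1, Ins2 and Iapp overlap, Gcg, Ttr, Irx1 and Irx2 lie lower and Acly and Cpt1a higher in all 3 HFD WT libraries.

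Insulin and IGF signalling held separated genes in both directions. Irs2, the insulin receptor substrate that carries insulin and IGF-1 signals in beta cells and is induced by cyclic AMP, was at 123, 154 and 200.4 CPM in STD WT and 73.3, 88.9 and 84.6 CPM in HFD WT. That is 1.93-fold lower in the fitted means (log2 fold change -0.95 ± 0.19 SE, 95% interval -1.37 to -0.53, adjusted p = 0.551 by edgeR). Igfbp5, which binds IGFs, was at 72.1, 43.6 and 33.2 CPM against 12.96, 21.4 and 18.3 CPM, and Grb10, an imprinted adaptor that restrains the insulin receptor, at 39.3, 36.8 and 35.5 CPM against 23.4, 27.3 and 25.5 CPM. Among the separated genes that lay higher were Rptor, a subunit of mTORC1, at 33.4, 33.7 and 30.2 CPM against 47.3, 45.1 and 46.95 CPM, and Tsc2, an inhibitor of mTORC1, at 55.3, 40.6 and 42.7 CPM against 61.02, 57.9 and 69.1 CPM. Of the 26 members tested 17 were positive and 9 negative, with a median of 0.12. Of these, 4 were separated higher (15.4%, against 5.06% of all genes) and 3 lower (11.5%, against 4.53%). In KO 25 of the 26 were negative, with a median of -0.29, and the smallest adjusted p of the interaction in the list was 0.621.

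Separated members of the list of metabolite and hormone receptors all lay lower in the high fat libraries, though most members of the list were positive. Lepr, the leptin receptor, was at 5.96, 6.20 and 8.12 CPM in STD WT and 2.46, 2.56 and 3.998 CPM in HFD WT, and Sstr2, a somatostatin receptor, at 6.92, 3.86 and 5.84 CPM against 1.61, 3.22 and 2.28 CPM; both were separated. Glp1r, the GLP-1 receptor of beta cells, was at 108, 173 and 149 CPM against 254, 135 and 238 CPM, with HFD WT 2 alone inside the STD range. Cnr1, a cannabinoid receptor, was at 6.14, 6.46 and 5.62 CPM against 15, 6.19 and 15.1 CPM, again with HFD WT 2 alone inside the STD range. Of the 27 genes of that list tested 4 were separated lower (14.8%, against 4.53% of all genes) and 0 higher. Irs2, given above and not itself a receptor, is 1 of these 4. The median was 0.11, with 16 positive and 11 negative, and was -0.09 without HFD WT 1, -0.06 without STD WT 1 and 0.29 without HFD WT 2.

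Acly had the largest share of the difference in summed level among lipid synthesis genes. This enzyme, which makes cytosolic acetyl-CoA from citrate, was at 934, 921 and 885 CPM in STD WT and 1705, 1254 and 1714 CPM in HFD WT, 1.71-fold higher in the fitted means (log2 fold change 0.77 ± 0.23 SE, 95% interval 0.26 to 1.28). Acaca, acetyl-CoA carboxylase, was at 34.3, 35.2 and 27.9 CPM against 44.4, 37.8 and 44.3 CPM, and Fasn, fatty acid synthase, at 108, 95.5 and 54.9 CPM against 114, 124 and 132 CPM. Lipe, hormone-sensitive lipase, was at 3.48, 4.49 and 4.51 CPM against 4.88, 6.13 and 5.54 CPM. Of the 32 genes of fatty acid and triglyceride synthesis and lipid droplets 4 were separated higher (12.5%, against 5.06% of all genes) and 1 lower, but the median of the list was 0.05, with 19 positive and 13 negative. It was -0.09 without HFD WT 2 (17 negative) and -0.03 without STD WT 3 (16 negative). The summed level was 1662 to 1973 CPM in STD WT and 2245 to 2693 CPM in HFD WT, a sum to which Acly contributed most of the difference.

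Sterol genes lay higher by a small amount. Of 24 genes of cholesterol synthesis and uptake 19 were positive and 5 negative, with a median of 0.15 and a range of -0.21 to 0.57, and 4 were separated higher (16.7%, against 5.06%). Cyp51, a demethylase of lanosterol, was at 40.3, 45.8 and 45.7 CPM in STD WT and 61.4, 46.6 and 53.6 CPM in HFD WT (log2 fold change 0.29 ± 0.13 SE), and Dhcr7, of the last step, at 20.5, 21.4 and 23.4 CPM against 24.3, 28.9 and 26.6 CPM. The summed level of the 25 genes was 1034 to 1133 CPM in STD WT and 1240 to 1356 CPM in HFD WT. In KO the list had 22 negative members and a median of -0.26.

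Fatty acid oxidation and PPAR target genes were mixed. Cpt1a, the carnitine transferase that admits fatty acids to mitochondria, was at 42.7, 49.4 and 50.7 CPM in STD WT and 62.5, 70.8 and 85.97 CPM in HFD WT (log2 fold change 0.62 ± 0.21). Ppargc1a, the coactivator PGC-1 alpha, was at 6.55, 6.77 and 5.34 CPM against 11.3, 7.09 and 11.1 CPM. Pdk4, the kinase that closes pyruvate dehydrogenase and a textbook target of fasting and PPAR signals, ran the other way, with 21.99, 38.6 and 53.2 CPM against 18.4, 18.04 and 20.2 CPM. Cd36, a fatty acid carrier, overlapped at 14.2, 18.9 and 10.1 CPM against 18, 22.7 and 22.3 CPM. Of the 33 genes tested 8 were separated higher (24.2%, against 5.06%) and 1 lower, with a median of 0.09. The ChREBP and glucose response list (15 genes, Pdk4 and Acly among them) had a median of -0.06, with 2 separated higher (13.3%) and 3 lower (20%, against 4.53%).

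Genes of the tricarboxylic acid cycle and pyruvate entry lay slightly higher in summed level, at 2166 to 2207 CPM in STD WT and 2259 to 2445 CPM in HFD WT, without overlap. Pcx, pyruvate carboxylase, was at 69.6, 87.1 and 73.2 CPM in STD WT and 101, 91.8 and 115 CPM in HFD WT. Of the 25 genes 4 were separated higher (16%, against 5.06% of all genes) and 0 lower, and the median was 0.08. The 74 nuclear-encoded genes of oxidative phosphorylation had a median of 0.03 with all members between -0.18 and 0.28, among them Ndufs1 at 0.17 and Sdhc at 0.17. The 12 mitochondrially encoded mRNAs had a median of 0.09, with mt-Cytb at 0.23 and mt-Nd2 at 0.22. Cytosolic ribosomal protein genes (50) had a median of 0.05, which was -0.17 without HFD WT 2. In KO the oxidative phosphorylation and ribosomal lists had medians of 0.52 and 0.51, and the smallest adjusted p of the interaction was 0.621 in each.

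Sirt3, the mitochondrial deacetylase deleted in the other genotype, was at 9.03, 11.3 and 11.5 CPM in STD WT and 11.4, 9.29 and 11.8 CPM in HFD WT. Its log2 fold change of 0.03 had a 95% interval of -0.45 to 0.52. All 7 sirtuins lay between -0.07 and 0.11, Sirt1 at -0.07 and Sirt4 at 0.11.

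Matrix transcripts were lower in the high fat libraries, most of all in HFD WT 1. Of 31 stellate cell, fibroblast and matrix genes 29 were negative and 2 positive, with a median of -0.71, and 6 were separated lower (19.4%, against 4.53%). Their summed level was 943 to 1304 CPM in STD WT and 602 to 936 CPM in HFD WT. Dcn, the matrix proteoglycan decorin, was at 72.3, 74.2 and 42.7 CPM in STD WT and 3.21, 32.2 and 25.5 CPM in HFD WT, and Lum, lumican, at 11.04, 11.4 and 6.79 CPM against 0.536, 6.31 and 3.998 CPM. Col5a2, a fibrillar collagen chain, was at 7.24, 11.3 and 7.12 CPM against 1.88, 5.18 and 2.97 CPM (log2 fold change -1.35 ± 0.35), and Col6a1, a chain of collagen VI, at 24.5, 25.8 and 12.8 CPM against 4.13, 13.8 and 9.77 CPM. In each of these 4 genes HFD WT 1 was the lowest of the 6 libraries; without it the median of the list was -0.37, and without HFD WT 2 it was -1.38. In KO the median was 0.02.

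The endothelial list (25 genes, 21 negative, median -0.18) held 4 genes separated lower (16%, against 4.53% of all genes). Vwf, von Willebrand factor, was at 30.5, 60.2 and 36.9 CPM in STD WT and 1.77, 13.9 and 21.9 CPM in HFD WT. Cldn5, a tight junction protein of endothelium, was at 5.36, 7.98 and 6.51 CPM against 0.0536, 4.05 and 2.17 CPM, with 1 read in HFD WT 1. Nostrin was at 6.23, 8.99 and 9.01 CPM against 6.000, 5.90 and 5.14 CPM. The summed level, 606 to 1203 CPM in STD WT and 560 to 1030 CPM in HFD WT, overlapped, and the median was 0.02 without HFD WT 2 and -0.46 without STD WT 1.

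Cytokine genes were mostly lower as well. Of 26 cytokine and NF-kappaB response genes 22 were negative, with a median of -0.74. Of the 26, 3 were separated lower (11.5%, against 4.53%) and 5 were lower at an unadjusted edgeR p under 0.05 (19.2%, against 3.02%). In the fit of the 6 WT libraries alone 21 were tested and 2 were lower at that threshold, where 340 of 15269 genes were. The summed level overlapped, at 668 to 785 CPM in STD WT and 620 to 734 CPM in HFD WT. Il1b, interleukin-1 beta, was at 6.37, 11.1 and 24.2 CPM in STD WT and 2.63, 4.88 and 3.14 CPM in HFD WT (log2 fold change -1.97 ± 0.49). Cxcl1, a neutrophil chemokine, was at 4.86, 3.23 and 13.4 CPM against 0.268, 2.14 and 1.14 CPM. Tnf was at 4.77, 2.15 and 8.51 CPM against 1.82, 3.10 and 1.66 CPM, Ccl2 at 1.05, 1.90 and 2.23 CPM against 0.375, 1.19 and 0.228 CPM and Cxcl10 at 3.71, 4.30 and 11.96 CPM against 1.07, 4.41 and 1.20 CPM, all 3 with HFD WT 2 inside the STD range. The median of the list was -1.64 without HFD WT 2 and -0.36 without HFD WT 1.

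Immune cell markers varied more within the diets than between them. The 29 macrophage and myeloid markers summed to 791 to 1601 CPM in STD WT and 576 to 1635 CPM in HFD WT, with a median log2 fold change of -0.06. Mrc1, the mannose receptor of resident macrophages, was at 2.61, 5.57 and 2.73 CPM against 1.02, 2.08 and 1.60 CPM, and Gpnmb, a glycoprotein of lipid-laden macrophages, at 1.01, 1.33 and 1.11 CPM against 2.30, 2.98 and 8.05 CPM, both separated. The 31 B and T cell markers had a median of 0.46 with 0 separated, and a median of -1.03 without HFD WT 2 and of -0.14 with limma-trend on log2(FPKM + 1). Ighd, the IgD heavy chain of naive B cells, was at 50.7, 22.7 and 10.1 CPM in STD WT and 2.41, 359 and 31.1 CPM in HFD WT. Cd5, a surface protein of T cells, was at 5.31, 3.35 and 4.28 CPM against 0.911, 18.8 and 4.51 CPM, and in both genes HFD WT 2 was the highest and HFD WT 1 the lowest library. Interferon response and antigen presentation genes (30 tested) had a median of 0.02, which was -0.44 without HFD WT 2; Gbp7 was at 9.67, 11.6 and 9.51 CPM against 5.95, 8.58 and 9.08 CPM and Irf1 at 41.3, 29.8 and 54.9 CPM against 22.9, 44.9 and 25.9 CPM.

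Levels of these other cell types were set beside the immediate early genes. The lymphocyte sum was highest in HFD WT 2 (4955 CPM), the HFD library in which Fos, Egr1, Nr4a1 and Junb were highest, and lowest in HFD WT 1 (190.2 CPM). Within STD WT, STD WT 2 had the highest lymphocyte sum of its group (4082 CPM) and the lowest Fos, Fosb, Nr4a1 and Junb. Macrophage and myeloid markers summed to 1601, 930 and 791 CPM in STD WT 1 to 3. In HFD WT 1 to 3 they summed to 576, 1635 and 867 CPM. Ductal markers summed to 3072, 1351 and 1138 CPM against 1155, 1929 and 1352 CPM. In STD WT, Jun, Junb, Atf3 and Dusp1 were highest in STD WT 1, and Fos, Fosb and Nr4a1 in STD WT 3. The part of these cells in the immediate early, cytokine and matrix differences was not tested.

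Acinar enzymes, which come from exocrine tissue, differed mainly through STD WT 3. The 29 acinar markers summed to 8021 to 36698 CPM in STD WT and 27822 to 44949 CPM in HFD WT, with a median of 0.39 over the 27 tested that was 0.00 without STD WT 3. Sycn, syncollin of the zymogen granule, was at 384, 445 and 106 CPM against 796, 898 and 952 CPM, and Cela3b, an elastase, at 1251, 1141 and 328 CPM against 1471, 2072 and 2149 CPM, both separated. Amy2a5, an amylase with near-identical copies, held only 2.98, 2.41 and 1.001 CPM against 0.643, 1.43 and 0.857 CPM, so its level is uncertain. Ductal markers (23, median -0.52) gave 0 separated genes; Krt18 was at 294, 129 and 152 CPM against 92.9, 154 and 95.3 CPM and Krt8 at 537, 163 and 198 CPM against 119, 237 and 129 CPM, both highest in STD WT 1, and the median was 0.50 without that library.

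Tph1 was high in STD WT 3 alone. This gene, the enzyme that starts serotonin synthesis in beta cells under lactogen stimulation, was read at 1.33, 0.696 and 43.5 CPM in STD WT and 1.29, 0.893 and 0.971 CPM in HFD WT. Its fitted log2 fold change of -3.84 ± 1.29 was 0.02 without STD WT 3. Tph2, its neuronal relative, was at 0.458, 1.20 and 3.62 CPM against 0.804, 0.536 and 0.514 CPM, and Cish, a target of STAT5, at 8.25, 3.67 and 24.4 CPM against 2.95, 4.65 and 3.998 CPM; in both STD WT 3 was the highest library. Socs2, another STAT5 target, followed at 15.5, 13.5 and 30.3 CPM against 10.6, 13.9 and 12.7 CPM. Of the 24 genes of the serotonin and lactogen list 17 were negative, and 5 were separated lower (20.8%, against 4.53%). At an unadjusted edgeR p under 0.05, 9 were lower (37.5%, against 3.02% of all genes). In the fit of the 6 WT libraries alone 5 were, where 340 of 15269 genes were lower. The median of -0.32 was -0.04 without STD WT 3.

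Other members of that list were separated between the diets. Matn2, an extracellular matrilin, was at 12.97, 15.95 and 27.3 CPM in STD WT and 8.68, 9.35 and 8.05 CPM in HFD WT. Socs3, a cytokine-induced inhibitor of JAK signalling, was at 113, 97.9 and 152 CPM against 31.3, 66.5 and 39.2 CPM (log2 fold change -1.40 ± 0.36). Enpp2, autotaxin, was at 99.1, 106 and 148 CPM against 64.5, 90.8 and 91.6 CPM, and Htr3a, a serotonin-gated channel, at 1.28, 1.01 and 0.779 CPM against 0.214, 0.119 and 0.685 CPM.

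The medians of the stress and antioxidant lists stayed near the median of all genes. Genes of protein folding stress (32 of the unfolded protein response and its integrated stress arm) had a median of -0.06, with Atf3 the lowest and Trib3 at 9.62, 6.08 and 14.9 CPM against 8.63, 5.66 and 2.86 CPM. Of 29 antioxidant and metallothionein genes (median -0.10) 2 were separated lower (6.90%, against 4.53% of all genes), among them Gpx3, a secreted glutathione peroxidase, at 634, 1074 and 699 CPM in STD WT and 446, 561 and 464 CPM in HFD WT. The summed level of the 30 antioxidant and metallothionein genes was 2443 to 2845 CPM in STD WT and 2138 to 2357 CPM in HFD WT, without overlap. Gsta4 was high in STD WT 1 alone (44.9, 4.62 and 2.84 CPM against 2.73, 9.41 and 1.54 CPM). Nr1d1, the clock repressor REV-ERB alpha, was at 83.6, 47.2 and 104 CPM against 39.2, 45.1 and 40.04 CPM. Of the 19 clock genes 3 were separated lower (15.8%, against 4.53% of all genes) and 2 higher (10.5%, against 5.06%), and their median of -0.15 was 0.02 without STD WT 3. The labels used here give no hour of collection.

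Cell cycle genes were mixed. The 38 genes of replication and mitosis had a median of -0.16 that was 0.22 without HFD WT 1 and -0.92 without HFD WT 2. Those libraries also had the lowest and the highest lymphocyte sum, and the part of lymphocytes in this list was not tested. Foxm1, a driver of mitotic genes, was at 2.61, 2.15 and 1.11 CPM against 0.643, 2.08 and 1.14 CPM, and Ccne2, cyclin E2, at 3.67, 3.73 and 3.23 CPM against 4.77, 5.06 and 4.23 CPM. Cdkn2a, which encodes p16 and accumulates in beta cells with age, was at 0.871, 1.33 and 1.28 CPM against 1.98, 1.61 and 1.49 CPM, separated but low. The glycolysis and hypoxia list (25 tested, median 0.02, 0 separated) included Slc2a1 at 21.8, 13.8 and 15.2 CPM against 8.46, 17.4 and 11.2 CPM and Adm at 1.79, 1.33 and 1.34 CPM against 0.536, 1.43 and 0.800 CPM.

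Minor cell lists gave few values. Of 12 Schwann cell and neuron genes tested 2 were separated lower (16.7%, against 4.53% of all genes), among them Prph, peripherin, at 2.57, 2.72 and 1.78 CPM against 0.482, 1.01 and 1.31 CPM, while Elavl4 overlapped at 21.8, 30.7 and 27.1 CPM against 24.8, 17.03 and 25.1 CPM. Adipoq, Lep, Retn and Cfd, markers of fat cells, were too weak to be tested, and Car3 was high in STD WT 2 alone (0.458, 9.56 and 0.501 CPM against 0.429, 0.476 and 0.400 CPM). Of 7 erythrocyte genes tested 5 were positive, with Hba-a2 at 2.47, 5.76 and 9.79 CPM against 18.96, 7.56 and 9.996 CPM and Hbb-bt at 3.12, 2.91 and 5.01 CPM against 10.6, 4.82 and 5.37 CPM, both overlapping.

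Several of the smallest p-values belonged to genes outside these lists. Gfra3, the artemin receptor, was at 5.41, 5.95 and 11.5 CPM in STD WT and 2.79, 1.91 and 2.46 CPM in HFD WT (log2 fold change -1.67 ± 0.28, adjusted p = 0.436 by edgeR), and its difference in KO was 0.44 (interaction 2.10 ± 0.37, adjusted p = 0.376). Peg10, an imprinted retrotransposon-derived gene, was at 7.19, 7.53 and 14.7 CPM against 3.05, 3.57 and 2.74 CPM. Cebpd, a transcription factor of the acute phase, was at 15.3, 14.7 and 24.9 CPM against 8.09, 8.75 and 8.80 CPM, with a difference of 0.41 in KO. Edn3, endothelin 3, was at 23.3, 25.3 and 24.5 CPM against 10.8, 14.5 and 11.9 CPM, and Reep1 at 3.07, 2.98 and 3.17 CPM against 1.39, 1.49 and 1.14 CPM. Gfra3, Peg10 and Cebpd were highest in STD WT 3.

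On the higher side, Hdac6, a cytoplasmic deacetylase of tubulin, had the smallest p, with 58.3, 66.4 and 52.2 CPM in STD WT and 88.2, 89.9 and 97.05 CPM in HFD WT (log2 fold change 0.64 ± 0.13 SE, 95% interval 0.36 to 0.92, adjusted p = 0.551 by edgeR). In KO it differed by -0.48, and the interaction of -1.12 ± 0.18 had an adjusted p of 0.306. Nmnat2, an enzyme of NAD synthesis in axons, was at 11, 11.5 and 12.1 CPM against 27.6, 17.4 and 25.7 CPM, and Vstm2a at 0.687, 0.886 and 1.001 CPM against 4.45, 1.85 and 3.31 CPM. Lrpprc, which stabilises mitochondrial mRNAs, was at 47.2, 43.5 and 43 CPM against 64.9, 60.3 and 75.8 CPM. Astn1 was at 2.93, 3.23 and 4.28 CPM against 9.80, 5.18 and 10.2 CPM, and Gabra4, a GABA-A receptor subunit, at 7.51, 6.27 and 7.62 CPM against 19.3, 8.16 and 14.7 CPM, both lowest on the high fat diet in HFD WT 2. Dcaf12l1, Focad and Mroh1 were separated as well, with log2 fold changes of 0.86, 0.90 and 0.72 in WT and -0.16, -0.28 and -0.13 in KO.

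**Figure D5:**
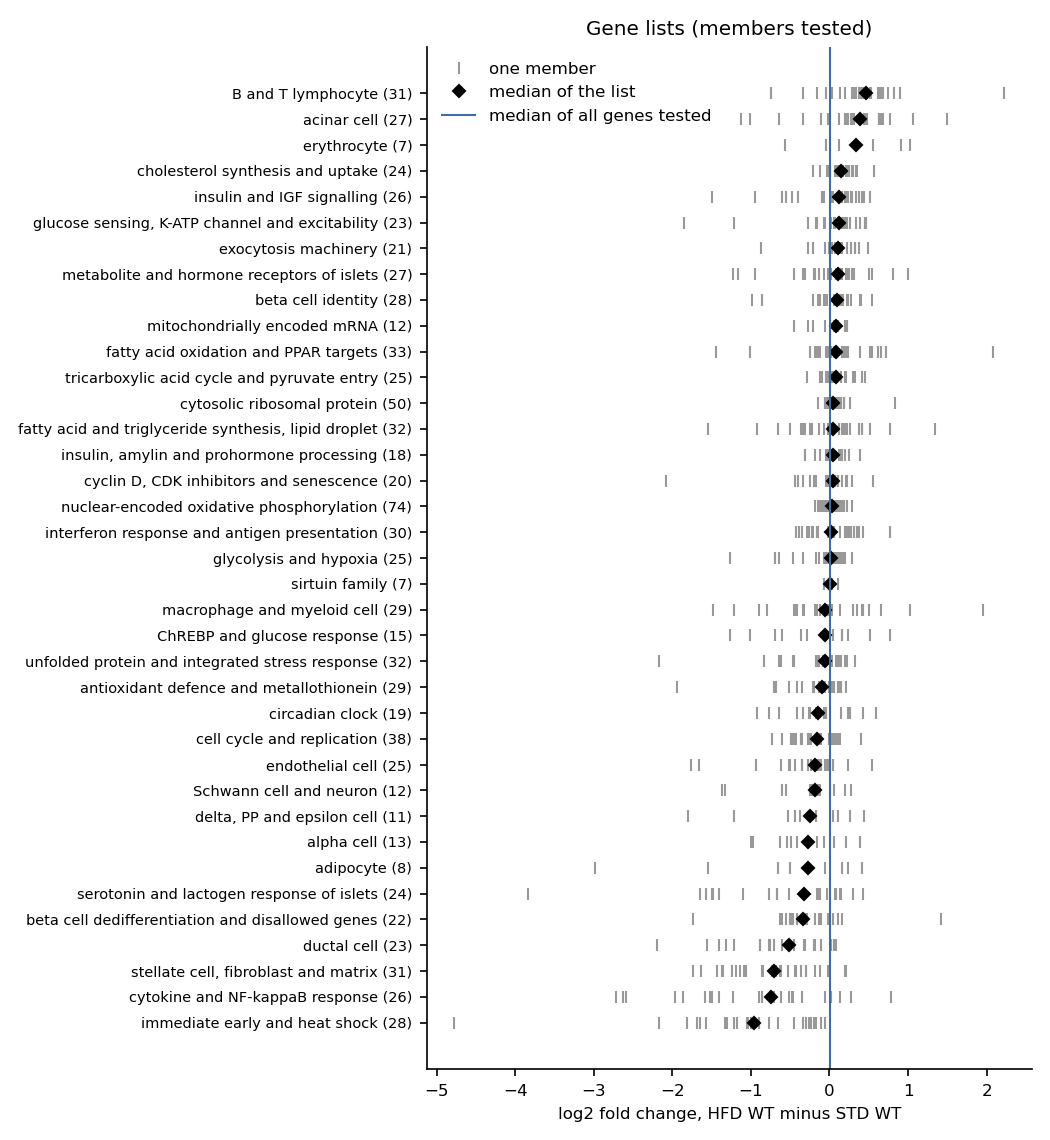
Each row is 1 of 37 gene lists, with the number of members tested in brackets; grey ticks are the log2 fold changes (HFD WT minus STD WT) of its members, the black diamond is their median and the blue line is the median of all 16076 genes, 0.01. The immediate early and heat shock list has the lowest median, -0.96, and the B and T lymphocyte list the highest, 0.46; the latter rests on HFD WT 2.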

How the data were processed

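RNA of islets was sequenced in 12 libraries, of which 6 (STD WT 1 to 3 and HFD WT 1 to 3) form the comparison. The authors deposited whole-number read counts per gene and FPKM values for each library. Per the submitters' processing notes, reads were aligned to mm10, and TopHat2, Cufflinks and DESeq were used, without versions. The role of each tool, the annotation and whether strand was used in counting: not given in the sources used here. The deposited FPKM could be rebuilt from the count, the gene's length and the library's total for 127439 of 127439 nonzero WT values (relative tolerance 1e-05), so they carry the same measurement.

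Of 54532 genes, filterByExpr (a minimum count of 10 and a minimum total of 15) kept 16076. After TMM scaling, all 12 libraries were fitted by edgeR 4.0.16 in R 4.3.3 as a quasi-likelihood model with a mean for each group, robust dispersion, and Benjamini-Hochberg adjustment over all genes (threshold 0.05); the contrasts were HFD minus STD in WT, the same in KO, and their difference (the interaction). SEs and 95% intervals came from that fit. The common biological coefficient of variation was 0.307. Counts of replicate libraries differed with a chi-square per degree of freedom of 31.6 to 82.8, which on average over genes is more than counting error alone. For weak genes the part of counting error in the precision was not tested. The code was tested on simulated counts.

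Results were recomputed with the size factors of DESeq2 1.42.0, with its Wald test, other filters, limma-trend (limma 3.58.1) on log2 FPKM, gene length offsets, the replicate number as a block, the 6 WT libraries alone, and leaving out each library. Replicate numbers did not pair the libraries: same-numbered STD and HFD deviations correlated at -0.40, -0.11 and 0.01.

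The 37 gene lists (925 members tested) and the genes to name were chosen with earlier results of these data known. The rule named 12 genes always (Sirt3, Ins1, Ins2, Iapp, Gcg, Sst, Ppy, Mafa, Slc2a2, Ucn3, Aldh1a3, Tph1). Since fewer than 10 genes passed the test, it added the 10 smallest p-values per direction among separated genes with a mean of at least 2 CPM, leaving out predicted and small RNA genes, and the 2 smallest p-values of each list; some genes that it chose are not reported here. Genes named beyond it were chosen after their values were seen: the other immediate early and heat shock genes, Npas4, Arc, Klf4, Errfi1, Irx2, Ttr, Dpp4, Scg2, Grb10, Rptor, Tsc2, Lepr, Glp1r, Cnr1, Acaca, Fasn, Cyp51, Ppargc1a, Cd36, Dcn, Lum, Cldn5, Tnf, Ccl2, Cxcl10, Cela3b, Tph2, Cish, Socs2, Socs3, Enpp2 and Htr3a. Gene annotation is that of GENCODE M21 (GRCm38), and promoters are from RefSeq (GRCm38.p6).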

Additional observations from a re-analysis of the deposited data

How the results depend on the processing

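The count of genes called by diet in WT was 0 under 14 of the 15 alternatives (leaving out each library included, 0 to 0) and 43 with the DESeq2 Wald test, where 1971 genes had no adjusted p. For the interaction the count was 31 with DESeq2, 1 without a filter on low counts, and 0 to 0 when each of the 12 libraries was left out in turn. With the replicate number as a block, 0 genes were called in either comparison; for diet in WT, fitted on the 6 WT libraries alone, 358 genes had an unadjusted p under 0.05 with the block and 747 without it. In place of 762 genes, limma-trend on log2(FPKM + 1) gave 466. No alternative moved the median of all genes by over 0.1 for diet in WT. Of 156 genes followed, 140 kept their direction throughout. The exceptions had small or single-library differences; the cause was not tested. Sirt3 was at -0.0057 and -0.0065 with limma-trend (pseudocounts 1 and 0.1), and with gene length offsets Ins1 was at 0.078, Hsph1 at 0.0024 and Bag3 at 0.025. With each library left out in turn the log2 fold change ran from -0.070 to 0.15 for Sirt3, -0.12 to 0.19 for Ins2, -0.17 to 0.11 for Ins1, -0.047 to 0.29 for Iapp, -0.16 to 0.28 for Slc2a2, -0.016 to 0.32 for Chga and -0.035 to 0.23 for Sirt4. It ran from -2.99 to 0.28 for Gsta4, -4.40 to 0.020 for Tph1, -0.72 to 2.97 for Ighd, -0.66 to 1.42 for Cd5, -1.02 to 0.23 for Myc, -1.59 to 0.075 for Egr3, -0.84 to 0.33 for Hsph1, -0.44 to 0.10 for Hspa8 and -0.24 to 0.089 for Bag3. Of 555 list medians, 11 moved by more than the spread between libraries. The 95% interval exceeded 2-fold for most genes under 10 CPM, where smaller differences were not detectable.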

Other observations

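Genes that the DESeq2 Wald test called and edgeR did not, outside every list, were named after their values were seen; in all of those given here the HFD libraries lay below the STD libraries. Reg2, a secreted protein of regenerating islets, ranged widely inside the standard diet group, with 235, 118 and 32.04 CPM in STD WT 1 to 3 and 27, 19.4 and 18.7 CPM in HFD WT 1 to 3 (log2 fold change -2.57 ± 0.67). Rab3c, a small GTPase of secretory vesicles, was at 11.04, 13.04 and 13.9 CPM against 4.71, 6.67 and 8.57 CPM, and Stxbp5l, a tomosyn that restrains vesicle fusion, at 5.73, 8.10 and 7.73 CPM against 2.36, 2.92 and 2.34 CPM. Gnai1, an inhibitory G protein subunit, had a small and even difference, 35.8, 39.4 and 33.9 CPM against 26.3, 24.4 and 27.3 CPM. Emp1, an epithelial membrane protein, was at 16.2, 16.01 and 11.7 CPM against 4.18, 5.36 and 6.80 CPM, and Msln, a mesothelial surface protein, at 39.95, 36.7 and 52.5 CPM against 14.7, 26.7 and 22.1 CPM. Crispld2, Cpxm2 and Itgbl1, secreted or matrix-associated proteins, had log2 fold changes of -1.72, -1.76 and -2.25, and in each HFD WT 1 was the lowest of the 6 libraries, as it was for Dcn, Lum, Col5a2 and Col6a1.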
